A study of Homo sapiens with 6 samples.

Results

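Telomerase, shelterin and the ATRX/DAXX pair were represented by 9 genes chosen by name: the telomerase components TERT and DKC1, the shelterin subunits TERF1, TERF2, TINF2, POT1 and ACD, and the chromatin genes ATRX and DAXX. All 9 had a row in each of 2 deposited tables of FPKM per gene, out of 17721 gene identifiers listed in at least 1 table, and no gene was dropped by a filter. FPKM is the number of fragments of a gene scaled by transcript length and by the fragments of the whole table.

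The material was RNA of U2OS, an osteosarcoma line of human origin that is long established. By the labels there were 6 samples: 1 input from shNC control cells (genotype given as WT), 1 input from shDNMT1 cells (DNMT1 knockdown), and, from the control and from the knockdown cells, 2 samples each of the RNA that came down with an NSun2 mutant. A plasmid carrying that mutant had been transfected into control and knockdown cells alike. DNMT1 maintains cytosine methylation in DNA, and NSun2 methylates cytosine in RNA. The tables carry no name of a sample, group or fraction. They are numbered first and second here without meaning, and no knockdown or immunoprecipitate effect could be computed. A table may hold input or immunoprecipitated RNA, so FPKM cannot be read as abundance in the cells. Each gene had 1 value per table, scaled within that table, so that no SD and no test between the tables exist.

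Telomeres are the repeat-capped ends of chromosomes, and they shorten at each division unless they are extended. Most cancers extend them with telomerase, in which the reverse transcriptase TERT copies a template in the RNA TERC. A minority, osteosarcomas often among them, use alternative lengthening of telomeres (ALT), which copies telomeric DNA by recombination. U2OS is a widely used ALT line, described as lacking telomerase activity and ATRX protein. Both tables nevertheless list RNA of TERT, ATRX, E-cadherin and, at high FPKM, the keratins KRT8 and KRT18. In the second table TERT, E-cadherin and EPCAM were below 1 FPKM, and the keratin KRT19 had no row. Mesenchymal markers are listed too, VIM among them, and others have no row (values below). A row of RNA shows neither protein nor enzyme activity. The identity of the cells behind the tables was not tested, and that doubt applies to each value given here. Shelterin coats the telomeric repeats and keeps the ends from being treated as breaks, and ATRX with DAXX deposits the histone variant H3.3 there.

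The members with the lowest and the highest ratio between the tables, TERT and POT1, are shown here by the 250 bases before their RefSeq start (GRCh38.p14), since no methylation value was analysed and the sequence is what can be shown of their regulatory DNA. Capitals mark each match to GGGCGG (a GC box, bound by SP1), CACGTG (an E box, bound by MYC with MAX) or TGACGTCA (a cyclic AMP response element), searched on both strands. The motifs were chosen after the sequences had been seen.
TERT, chr5:1295069-1295318, minus strand: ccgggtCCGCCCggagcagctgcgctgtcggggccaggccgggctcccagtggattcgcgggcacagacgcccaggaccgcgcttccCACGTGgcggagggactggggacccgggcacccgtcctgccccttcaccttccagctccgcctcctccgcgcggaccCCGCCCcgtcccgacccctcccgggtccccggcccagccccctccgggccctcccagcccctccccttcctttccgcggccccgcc
POT1, chr7:124929826-124930075, minus strand: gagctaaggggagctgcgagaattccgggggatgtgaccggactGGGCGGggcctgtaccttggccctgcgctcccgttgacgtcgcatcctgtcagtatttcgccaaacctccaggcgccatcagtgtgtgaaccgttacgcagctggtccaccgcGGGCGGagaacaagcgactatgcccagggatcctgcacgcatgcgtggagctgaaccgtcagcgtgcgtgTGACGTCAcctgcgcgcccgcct

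The TERT window held 2 GC boxes and 1 E box, with 28 CpG dinucleotides and 78.8% G or C. The POT1 window held 2 GC boxes and 1 cyclic AMP response element, with 25 CpG dinucleotides and 64.4% G or C. No matches overlapped each other in these windows. Among 35116 promoter windows of the same length, 42.6% held the GC box, 6.34% the E box and 1.65% the response element, and the median was 11 CpG dinucleotides. RefSeq promoter windows were matched for 5 of the 9 genes. The ACD window held 27 CpG dinucleotides and 2 GC boxes, and that of DKC1 29 and 4. The windows of the 2 annotated starts of TINF2 each held 20, with 1 and 2 GC boxes. All 5 genes were thus above the median promoter in CpG content, which describes sequence and not methylation.

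TERT, the catalytic subunit of telomerase (ENSG00000164362, chromosome 5, 1253147 to 1295069, hg38), had 2.11 FPKM in the first table against 0.487 FPKM in the second. It had the lowest FPKM of the 9 genes in both. Its log2 ratio of second over first was -1.06 on the log2(FPKM + 1) scale used throughout, where the added 1 FPKM understates differences of low genes. The FPKM values themselves differed 4.33-fold. In bulk RNA, fewer cells with a transcript, less transcript per cell and, in an immunoprecipitate, less recovery cannot be told apart. TERT lay at percentile 37.2 of the 15167 genes listed in the first table and at percentile 23.6 of the 16824 in the second. Percentiles of the 2 tables thus rest on lists of unlike length. On that scale it was the 1 member of 9 past a 2-fold difference. Of all 14270 genes in both tables, 3.72% differed that much in either direction, and 1.68% were that much lower in the second. Genes at the level of TERT passed this limit more often than all genes did. Of the 1795 genes whose mean FPKM was within 1.5-fold of that of TERT, 8.19% passed it, 4.85% with the second table lower and 3.34% with it higher.

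Among the genes around TERT, CLPTM1L, next to its start, was listed at 221 and 233 FPKM. The transporter gene SLC6A19, on the other side, was listed at 0.688 and 0.225 FPKM, and the dopamine transporter gene SLC6A3 at 0.593 and 0.033 FPKM. Within 1 Mb of its locus start, 25 other genes were in both tables, 10 higher and 15 lower in the second, with a median log2 ratio of -0.16. Their ratios ran from -0.85 to 0.68, so that with 1 FPKM added TERT lay below each of them. That place depended on the pseudocount. With 0.1 FPKM added 2 of the neighbours had a lower ratio than TERT, and with none added 3 had: SLC6A3 (-4.15), NKD2 (-3.23) and RP11-43F13.3 (-3.06), against -2.11 for TERT.

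Markers of other cell types and of bone were set beside TERT. Of 5 epithelial genes, all had a row in the first table, and 4 had one in the second, and these 4 were lower in the second (45.2% of all genes in both tables were), with a summed level of 2901 and 2607 FPKM for the list. E-cadherin (CDH1) was listed at 8.42 and 0.392 FPKM and EPCAM at 2.20 and 0.555 FPKM, both past 2-fold lower on the same scale, as were TERT and 1.68% of all genes. The keratins KRT8, at 1597 and 1410 FPKM, and KRT18, at 1293 and 1196 FPKM, made up most of that sum and did not pass 2-fold. KRT19 had 0.199 FPKM in the first table and no row in the second. Of the 5 osteoblast and mesenchymal markers in both tables, COL1A1, at 3.04 and 0.451 FPKM, and ALPL, at 78.4 and 38.05 FPKM, were also past 2-fold lower in the second table. Fibronectin (FN1), at 4.84 and 11.7 FPKM, and N-cadherin (CDH2), at 7.41 and 16.2 FPKM, were past 2-fold higher, as were 2.04% of all genes. The part of other cells in the TERT values was not tested.

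**Figure D1:**
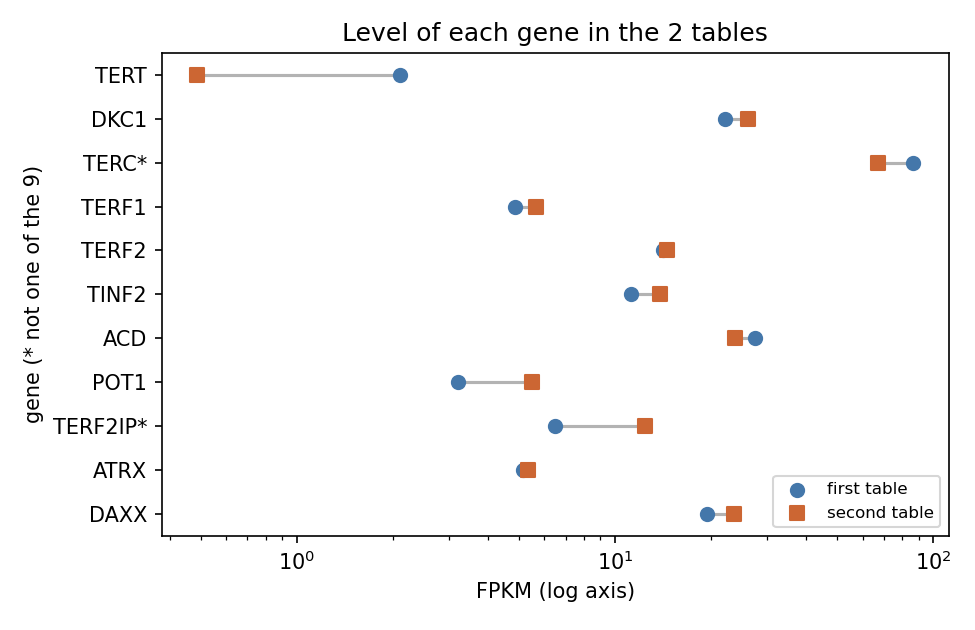
FPKM on a log axis for the 9 genes and for TERC and TERF2IP (asterisks), with a circle for the first table and a square for the second, 1 value each and no error. TERT lies lowest in both tables, at 2.11 and 0.487 FPKM, and the lines of POT1 and TERF2IP run toward higher values in the second table.

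DKC1 encodes dyskerin, the pseudouridine synthase that binds and stabilises TERC (ENSG00000130826, chromosome X, 154762742 to 154777689). It had 22.2 and 26.2 FPKM, with a log2 ratio of 0.23. Within the first table DKC1 stood 10.5 times as high as TERT, and within the second 53.8 times. TERC, which is not one of the 9, was listed at 86.5 and 67.1 FPKM. A second identifier at the same locus, named Telomerase-vert, was listed at 395 and 255 FPKM. The sources used here do not state how fragments were divided between these 2 identifiers. Their sums were 482 and 322 FPKM, a log2 ratio of -0.58, against -0.36 for the identifier named TERC alone.

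Of the 14 listed genes of telomerase and its assembly, 9 were higher and 5 lower in the second table, with a median log2 ratio of 0.25. Over all genes in both tables, 54.8% were higher and the median was 0.05. TERT was the 1 gene of this list that differed by at least 2-fold, as did 3.72% of all genes in both tables. Of the proteins that join dyskerin in its core particle, none passed 2-fold. NHP2 was listed at 77.3 and 83.2 FPKM, NOP10 at 67.8 and 83.7 FPKM and GAR1 at 6.13 and 11.2 FPKM. The latter had the highest log2 ratio of the list, 0.78. The assembly factor NAF1, which GAR1 replaces as the particle matures, was listed at 7.21 and 10.5 FPKM. WRAP53, which binds TERC and carries telomerase to Cajal bodies, was listed at 30.4 and 26.4 FPKM.

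The 5 shelterin genes among the members were listed at between 3.22 and 27.6 FPKM in the first table and between 5.49 and 23.9 FPKM in the second. None differed by at least 2-fold, as 3.72% of all genes in both tables did. TERF1 (TRF1; ENSG00000147601, chromosome 8, 73008864 to 73048122) binds double-stranded telomeric repeats and regulates telomere length. It had 4.86 and 5.66 FPKM, with a log2 ratio of 0.18. RefSeq lists 7 pseudogenes named for it, and none of them had a row in the tables under these names. TERF2 (TRF2; ENSG00000132604), which binds the same repeats and holds the end in a protective loop, was listed at 14.2 and 14.6 FPKM. Its log2 ratio of 0.04 became -0.02 once the median ratio over all genes was subtracted (centring), so it has no direction independent of scaling. TERF2 stood 2.91 times as high as TERF1 in the first table and 2.58 times in the second.

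TERF2 was the 1 member whose locus other identifiers shared. RefSeq places the gene at 69355567 to 69386007 on chromosome 16, while the table's locus runs from 69105564 to 69408571 and holds 10 other identifiers. CHTF8, a gene of sister chromatid cohesion, was listed there at 67.4 and 72.3 FPKM. The ribosome assembly gene UTP4 was listed at 49.4 and 60.1 FPKM, and another ribosome biogenesis gene, NIP7, at 10.2 and 18.8 FPKM. The sorting ATPase VPS4A stood at 30.2 and 32.0 FPKM and the syntrophin SNTB2 at 6.82 and 7.39 FPKM. PDF was listed at 16.9 and 15.3 FPKM and HAS3 at 0.669 and 1.16 FPKM. The 2 identifiers of COG8 were listed at 4.75 and 2.97 FPKM and at 10.9 and 8.51 FPKM. RP11-343C2.11 had 0.582 FPKM in the second table and no row in the first. Of the partners in both tables none differed by at least 2-fold, beside 3.72% of all genes.

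TINF2 (TIN2) bridges TERF1, TERF2 and the single-strand binding pair (ENSG00000092330, chromosome 14, 24239643 to 24242674). It had 11.2 and 13.9 FPKM, with a log2 ratio of 0.28. That single-strand pair consists of POT1, which binds the telomeric overhang, and ACD (TPP1), which recruits telomerase and tethers POT1 to TINF2. These 2 partners differed between the tables in opposite directions. POT1 (ENSG00000128513, chromosome 7) had 3.22 and 5.49 FPKM, with a log2 ratio of 0.62 or 1.54-fold, the highest of the 9 genes. Of all genes in both tables, 12.2% passed 1.5-fold in that direction. ACD (ENSG00000102977, chromosome 16) had 27.6 and 23.9 FPKM, with a log2 ratio of -0.20, and besides TERT it was the only member lower in the second table. Of all genes in both tables, 27.4% had a lower ratio than ACD. Centring, which subtracts 0.05 from each ratio, left POT1 higher, and it could not have turned the sign of ACD. The sign of a ratio does not depend on the pseudocount, so other pseudocounts are no check of these directions. ACD stood 8.57 times as high as POT1 in the first table and 4.35 times in the second.

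The table's locus of POT1, 124822386 to 125379321, runs upstream past the RefSeq start of this minus-strand gene at 124929825, over the noncoding antisense gene POT1-AS1. That of ACD, 67644919 to 67660815, begins before the gene's 67657512 and covers CARMIL2. No other identifier carried either locus, and the tables do not show how fragments from these neighbours were treated. Whether strand was used in counting was not stated. POT1 had 1 other gene in both tables within 1 Mb, GPR37, at 5.19 and 7.30 FPKM. ACD had 55, and the second table was higher for 23 of them and lower for 32, with a median log2 ratio of -0.04.

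TERF2IP (RAP1), the shelterin subunit that rides on TERF2 and is not one of the 9, was listed at 6.49 and 12.4 FPKM. Its log2 ratio of 0.84 was above that of each of the 5 shelterin members. It shared its locus with KARS, a lysyl-tRNA synthetase gene listed at 25.8 and 40.4 FPKM. Over the 6 shelterin subunits, FPKM summed to 67.6 and 75.9 in the first and second table. The highest, ACD, stood 8.57 and 4.35 times as high as the lowest, POT1. Of the 12 genes of shelterin and its direct partners, 9 were higher and 3 lower in the second table, beside 54.8% higher over all genes. Their median log2 ratio was 0.21 and none passed 2-fold, beside 3.72% of all genes. With centring, which turns the sign of TERF2, 8 were higher and 4 lower. The tankyrases TNKS and TNKS2, which release TERF1 from telomeres, were listed at 6.29 and 7.61 FPKM and at 5.04 and 6.12 FPKM. ZBTB48 (TZAP), a zinc finger protein that binds telomeric repeats and trims long telomeres, was listed at 6.55 and 5.14 FPKM.

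ATRX is the chromatin remodeller, and DAXX the histone chaperone, of the complex that deposits H3.3. ATRX (ENSG00000085224, chromosome X, 77504878 to 77786269) was listed at 5.12 and 5.33 FPKM, at percentile 55.0 of the genes listed in the first and 58.1 in the second. The second list is longer, and counted from the highest gene ATRX ranked 6820 in the first and 7042 in the second. Its log2 ratio of 0.05 became -0.01 with centring, so it too has no direction independent of scaling. One FPKM per gene does not show which exons the fragments came from. DAXX (ENSG00000204209, chromosome 6, 33318558 to 33329269) had 19.4 and 23.6 FPKM, with a log2 ratio of 0.27. RefSeq places DAXX at 33318558 to 33322959, so the table's locus runs beyond the gene. Within a table, DAXX stood 3.79 times as high as ATRX in the first and 4.42 times in the second.

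**Figure D2:**
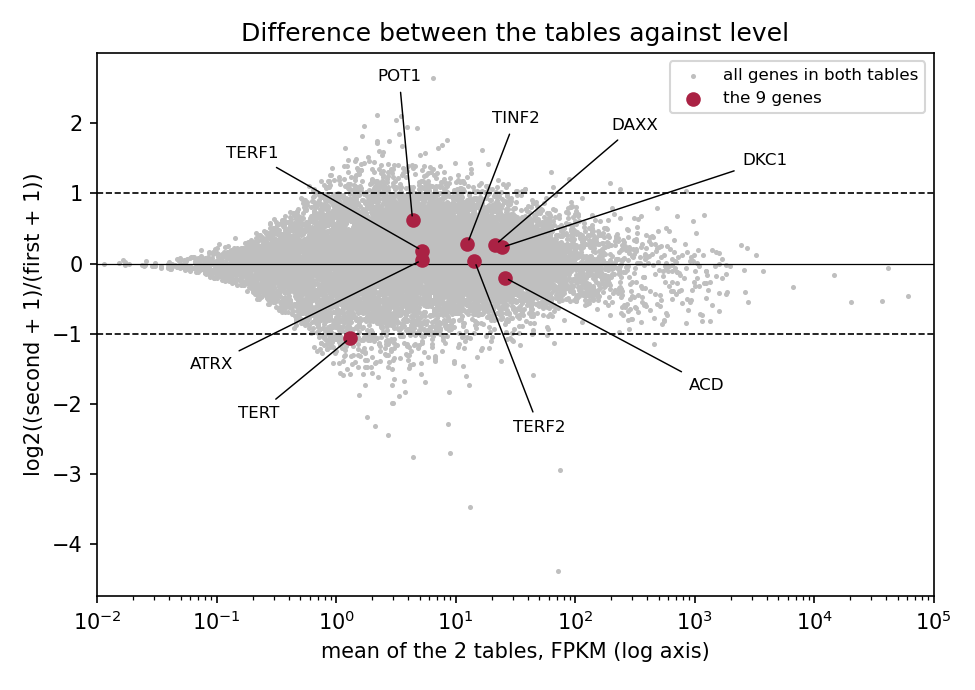
Log2 ratio of second over first table, with 1 FPKM added, against the mean FPKM on a log axis, for the 14270 genes in both tables (grey) and the 9 genes (red); dashed lines mark 2-fold. TERT lies just past the lower line at -1.06, and the other 8 genes lie between -0.20 and 0.62.

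Over the 9 genes, 7 were higher and 2 lower in the second table, with a median log2 ratio of 0.18, beside 54.8% higher, 45.2% lower and a median of 0.05 over all genes in both tables. With the ratios centred, 5 were higher and 4 lower. The order of levels from high to low in the first table was ACD, DKC1, DAXX, TERF2, TINF2, ATRX, TERF1, POT1 and TERT. In the second table it was DKC1, ACD, DAXX, TERF2, TINF2, TERF1, POT1, ATRX and TERT. The genes fell into an upper set of 5, at no less than 11.2 FPKM in either table, and a lower set of 4, at no more than 5.66 FPKM. With 1 value per table, whether neighbours in these orders differ beyond replicate error cannot be said.

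**Figure D3:**
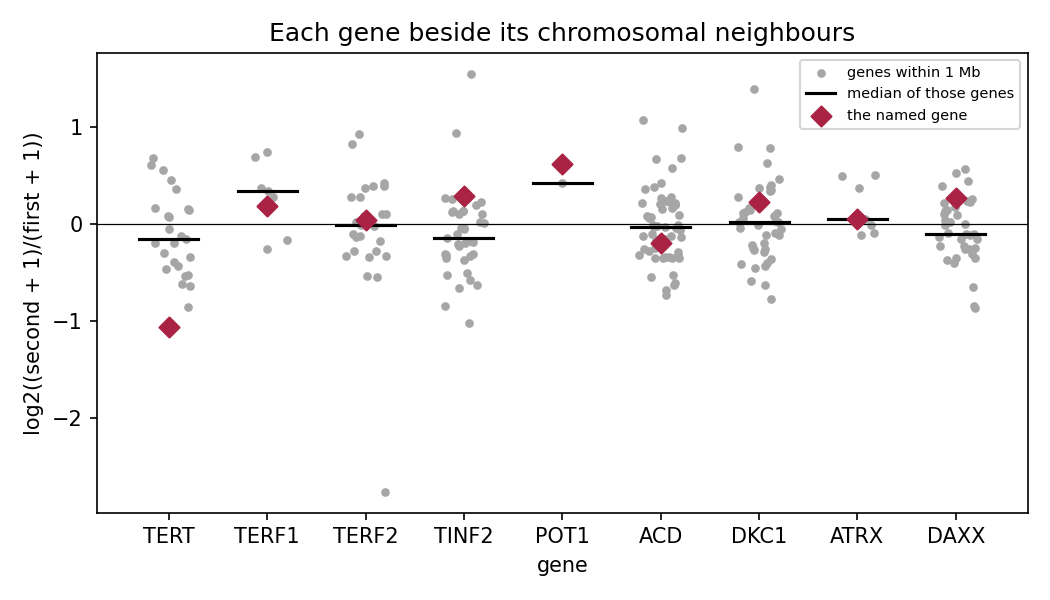
Log2 ratio of second over first table for each of the 9 genes (diamonds) and for the genes in both tables whose locus starts within 1 Mb (grey points, with their median as a bar). On this scale TERT lies below all 25 of its neighbours, though 3 of them lie below it with no pseudocount, while ATRX lies at 0.05 beside a neighbour median of 0.05.

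The members' surroundings on the chromosomes differed widely. ATRX had 7 other listed genes within 1 Mb of its locus start, TERF1 had 9 and POT1 had 1. The other 6 members had between 31 and 73. The neighbours in both tables had a median log2 ratio of 0.34 around TERF1, -0.15 around TINF2 and -0.10 around DAXX, where the genes themselves had 0.18, 0.28 and 0.27. TINF2 and DAXX thus had ratios of the opposite sign to the median of their neighbours. TERF2 did too, at 0.04 beside -0.01, but centring turns its sign. Around DKC1, itself at 0.23, the neighbour median of 0.02 would turn negative with centring, which subtracts 0.05.

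Genes that act beside these complexes were described from lists by role. For CST, which ends telomerase action and calls in DNA polymerase alpha, and for lagging strand synthesis, 6 of 10 genes were higher and 4 lower in the second table, with a median log2 ratio of 0.29. That share is near the 54.8% higher over all genes in both tables, where the median was 0.05. Only a minority of these genes shared no locus, with log2 ratios from -0.36 to 1.03 and a median of 0.53. PRIM2, a primase subunit, was the 1 gene of the list past 2-fold, with 6.32 and 14.0 FPKM and a log2 ratio of 1.03 that became 0.98 with centring. RefSeq lists 1 pseudogene named for it. Of all genes in both tables, 2.04% passed 2-fold in that direction. The CST subunits CTC1, at 7.92 and 10.8 FPKM, and STN1, at 1.502 and 2.84 FPKM, were higher in the second table, and the third, TEN1, was lower, at 13.7 and 11.5 FPKM. RTEL1, a helicase that unwinds telomeric loops, was listed at 8.56 and 6.79 FPKM. RTEL1 shared its locus with 7 other identifiers, TEN1 with 4 and CTC1 with 1.

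Of the 11 genes of H3.3 loading, ATRX and DAXX included, 8 were higher and 3 lower in the second table, with a median of 0.22 and none past 2-fold. Beside these, 54.8% of all genes in both tables were higher, with a median of 0.05 and 3.72% past 2-fold in either direction. With centring, which turns the sign of ATRX, 7 were higher and 4 lower. Among the genes of this list that share no locus, the median fell to 0.05. The 2 genes that encode H3.3, H3F3A and H3F3B, were listed at 79.2 and 120.8 FPKM and at 110.5 and 134.6 FPKM. HIRA, the chaperone that loads H3.3 outside the ATRX and DAXX route, was listed at 10.7 and 12.5 FPKM. The histone chaperone ASF1B was lower in the second table, at 62.5 and 49.1 FPKM, and its paralog ASF1A was listed at 1.64 and 2.30 FPKM.

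**Figure D4:**
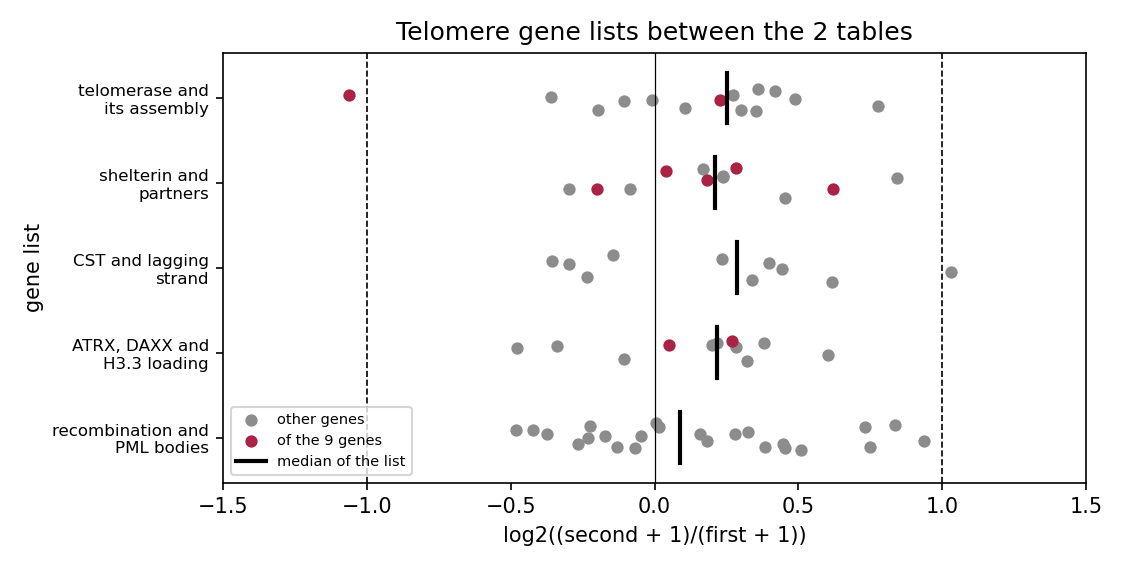
Log2 ratio of second over first table for the genes of 5 telomere lists in both tables (points, red for the 9 genes, spread vertically for display), with the median of each list as a bar and 2-fold as dashed lines. The medians lie between 0.09 and 0.29, and TERT and PRIM2 are the genes past 2-fold, PRIM2 not so with centring.

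Recombination and PML body genes, which serve ALT telomeres, were divided, with 14 of 24 higher and 10 lower in the second table. That share is near the 54.8% higher over all genes. Their median was 0.09 and none passed 2-fold, beside 3.72% of all genes. With centring 12 were higher and 12 lower. PML, the scaffold of the nuclear bodies in which ALT telomeres gather, was listed at 13.1 and 12.7 FPKM. The helicase BLM was listed at 2.22 and 2.91 FPKM. The orphan nuclear receptors NR2F2 and NR2C2, which bind variant repeats at ALT telomeres, were listed at 7.87 and 13.7 FPKM and at 3.96 and 7.85 FPKM. ZNF827, which they recruit, had 0.032 FPKM in the second table and no row in the first.

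Facts of the whole series bear on these values. DNMT1 was listed at 23.3 and 9.36 FPKM and NSUN2 at 559 and 1147 FPKM, and neither value was used to assign a table to a group. Of 11 osteoblast and mesenchymal markers, 5 had a row in the first table, and 8 had one in the second. Those with a row in the second table only were each below 1 FPKM there, from 0.033 to 0.806 FPKM. Beside the 4 named with TERT, the filament gene VIM had 262 and 407 FPKM, and SP7, COL1A2 and SPP1 were in neither table. None of 3 blood markers and 1 of 3 neural markers (TUBB3) was listed. The absolute depth of the tables is unknown.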

How the data were processed

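RNA of U2OS cells was measured in 6 samples, and 2 tables of FPKM per gene were deposited by the authors, per the file headers. The tool that made the FPKM values, the annotation and any pooling were not stated. Cutadapt 1.12, MACS 1.4.2, BWA 0.7.13 and the build hg38 appear, with no role, in the submitters' processing notes. No column named a sample, so no group was assigned.

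Rows were taken by gene name, and all 9 gene identifiers matched their symbols. The ratio was log2((second + 1)/(first + 1)), and a difference of at least 2-fold stood in for a call. Loci were counted from 0 in the tables and are printed from 1. Low values give no settled depth: among 2354 genes under 1 FPKM in both tables, log2 ratios without a pseudocount gathered near -0.08 and -1.12 in nearly equal numbers, which as equal fragment counts would put the second table at 1.06 or 2.17 times the depth of the first.

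Genes named were the 9 members, genes at their loci, TERF2IP, DNMT1, NSUN2, and of each of 5 lists those past 2-fold with up to 4 others by role. TERC and the genes around TERT were named after their values were seen, as were single genes beyond 4 in a list. The members and lists were chosen with earlier results of these data known. The code for ratios and counts was run on simulated data, with differences planted in genes of higher level than TERT, POT1, ATRX and TERF1. That run checks the arithmetic only and does not cover genes at the level of these members. Calculations used Python 3.11.15, pandas 2.3.3 and numpy 2.4.6, and figures matplotlib 3.10.9. One gene of a list is not reported here by name.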

Additional observations from a re-analysis of the deposited data

How the results depend on the processing

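No paired analysis was possible because no column carries a replicate number, and leaving out replicates and tests over the immunoprecipitates were not run for the same reason. A value counted as moved when its sign turned or it shifted by over 1.5-fold. The log2 ratio of TERT was -1.91 with a pseudocount of 0.1 FPKM and -2.11 with none, the latter setting chosen after seeing the data; a smaller pseudocount enlarges ratios by construction. With centring it was -1.12. Centring turned the signs of ATRX (-0.0050) and TERF2 (-0.016), by subtracting 0.05. At a 1.5-fold limit POT1 joined TERT, giving 1 member higher, beside 1741 higher and 1118 lower of all genes. The counts of all genes at least 2-fold higher and lower, 291 and 240, became 1058 and 973 with a pseudocount of 0.1 FPKM, 167 and 114 among genes sharing no locus, 60 and 87 at the level of TERT (chosen after seeing the data), and 233 and 286 with centring. The fewer genes under the filters, and the larger ratios of the pseudocount, follow from their construction. Among genes sharing no locus, list medians were 0.29 for telomerase, 0.18 for shelterin, 0.53 for CST, 0.05 for H3.3 loading and 0.22 for recombination. Of the values recomputed, 53 stayed within these limits and 13 moved. That tally does not measure robustness, since many of the values could hardly have moved. Centring shifts each ratio by 0.05 only, and the pseudocount matters little for genes well above 1 FPKM. TERT lies near the 1 FPKM added, so its ratio depends on the pseudocount, and no replicate gives it an error.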
